A study of Mus musculus with 12 samples.

Results

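Chemokines, interleukins, the ligands and receptors of the TNF family and the receptors of all these signals were followed across 3 groups of mouse livers. The members were all genes of the array's annotation whose symbol starts with Ccl, Ccr, Cxcl, Cxcr or Il followed by a digit, or with Tnfrsf or Tnfsf, and Tnf itself, each read from its brightest probe over 12 arrays. This gave 152 of the 17742 genes measured, and 114 of them (75.0%) had a mean intensity above 200. The groups were mice given STZ and then MENS (STZ+MENS), mice given STZ alone (STZ) and untreated mice (Control), with 2 liver samples per group and 2 arrays per sample. STZ is streptozotocin, which kills the beta cells of the pancreas and is used to make mice diabetic. The labels give MENS without its full name. It was delivered through a printed circuit board that a MENS device powered, for 1 h per day, 5 days per week, over 6 weeks. The age label is 8 weeks for every sample, with no word on the day it refers to, and all mice given MENS had also received STZ, so MENS alone was not examined. Whether a sample was taken from 1 animal is not labelled, and p-values therefore reflect the spread of these samples alone, which may be technical.

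Chemokines are small secreted proteins that draw leukocytes along a gradient through G protein-coupled receptors, the CC ligands mostly monocytes and lymphocytes and many CXC ligands neutrophils. Interleukins and TNF family ligands are the other main messengers between immune cells and tissue, and their signals end largely in the transcription factors NF-kB and STAT. In liver, resident macrophages (Kupffer cells) are a known source of IL-1 and TNF, and hepatocytes carry the IL-6 receptor through which acute phase proteins are induced.

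Arrays measure each gene with its own probe, so a level can be compared between samples but not between genes. The members' median intensity was 491, and the median of all genes was 1318. Of all genes, 14525 (81.9%) lay above 200. The samples had the levels of liver: 6 of 10 listed hepatocyte markers were measured, all above 200, of which Alb, Apoa1 and Ttr shared the top values of the arrays and made up most of the sum. The summed intensities were 1659760 and 1785500 in STZ+MENS, 1855250 and 1710990 in STZ, and 1942240 and 1936940 in Control. Of the other hepatocyte markers, Apob was at 19071 and 61112 in STZ+MENS, 177135 and 118440 in STZ, and 162288 and 156980 in Control, and Cps1 at 26185 and 72964, 125841 and 87468, and 139830 and 104024 in the same order. Both were apart and lower in STZ+MENS, with sample 1 the lowest. The median SD between samples of a group was 0.20 on the log2 scale for the 114 brighter members and 0.18 for all genes above 200. For 23 of the 114, at least 1 pair of arrays of the same sample lay more than 1 apart on that scale. The same held for 1311 of all 14525 genes above 200, a smaller share. The number of arrays limits the precision of every value below.

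By role, an intensity of 200 was exceeded by 9 of 11 TNF ligands, 15 of 19 TNF receptors, 27 of 37 interleukins, 33 of 39 interleukin receptors and binding proteins, 10 of 16 CC ligands, 5 of 10 CC receptors, 11 of 13 CXC ligands and 4 of 7 CXC receptors. Just inside the threshold were Il19 at 218, Il17a at 218, Il20 at 215 and Tnfrsf26 at 204. Just outside were Cxcl3 at 196, Ccl17 at 189, Tnfrsf13c at 184 and Ccr1l1 at 183. A further 11 members had a mean under 50, among them Cxcl10, an interferon-induced attractant of T cells, whose intensity was between -5.12 and 12.2 in the 6 samples. An intensity of 200 is no detection limit: 300 of 575 genes of smell receptors (52.2%), which are known from the nose, also lay above it. Their 95th percentile was 3285, and 23 members exceeded it.

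**Figure D1:**
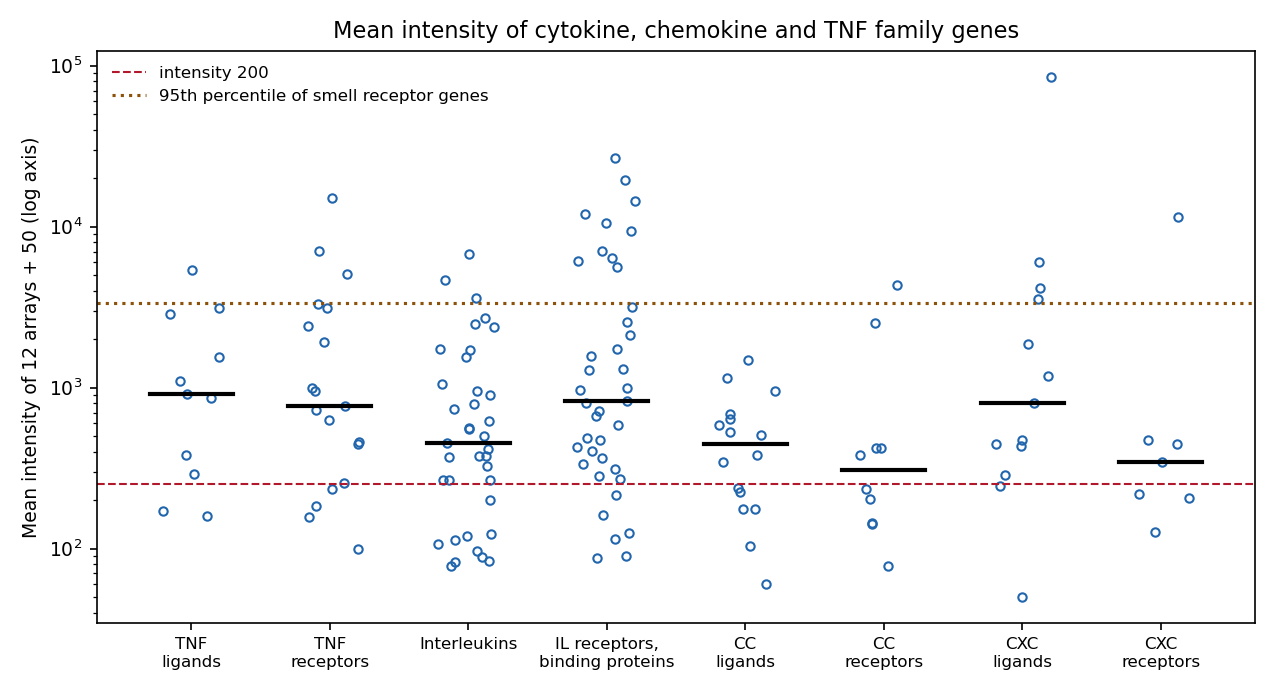
Mean intensity of the 12 arrays plus 50 (log axis) for each of the 152 genes, by role, with a bar at each role's median. The dashed line marks an intensity of 200, which 114 genes exceed, and the dotted line the 95th percentile of 575 smell receptor genes at 3285.

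With 2 samples per group, no member passed a Benjamini-Hochberg adjustment over all genes in any comparison by limma, so all differences below are measured values that did not pass. In STZ against Control, 0 of 152 members passed (0.00564% of all genes did), and the lowest adjusted p of a member was 0.0902, for Tnfrsf13c. At an unadjusted p under 0.05 the count was 26, of which 15 were higher and 11 lower in STZ. That is 17.1% of the members, against 17.0% of all genes, of which 8.48% were higher and 8.49% lower. In STZ+MENS against STZ, 0 members passed (0% of all genes), with a lowest adjusted p of 0.0595 for Cxcl5. Here 28 members, 16 higher and 12 lower in STZ+MENS, were under the unadjusted threshold, which is 18.4% of the members, against 25.4% of all genes, of which 12.6% were higher and 12.8% lower. In STZ+MENS against Control, 0 members passed (0.00564% of all genes), with a lowest adjusted p of 0.111 for Cxcl5. The unadjusted count was 22, with 14 higher and 8 lower in STZ+MENS, or 14.5% of the members and 18.0% of all genes, of which 8.82% were higher and 9.18% lower. The first share was close to that of all genes and the other shares were below it. The STZ and Control samples were without overlap for 78 members (51.3%, against 52.1% of all genes). Of these, 33 were higher in STZ (21.7%, against 24.0% of all genes) and 45 lower (29.6%, against 28.2%). For STZ+MENS against STZ this held for 79 members (52.0%, against 57.9% of all genes). In STZ+MENS, 49 were higher (32.2%, against 34.0% of all genes) and 30 lower (19.7%, against 23.9%). For STZ+MENS against Control it held for 57 members (37.5%, against 48.6% of all genes). There 29 were higher (19.1%, against 25.6% of all genes) and 28 lower (18.4%, against 23.0%). The 3 comparisons share samples, so their values are given side by side and are not counted as support for each other.

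The count of 0 depended on a single sample and on the way arrays entered the fit. Without STZ+MENS sample 2, 9 members passed in STZ+MENS against STZ, where 9.91% of all genes then passed. That fit has 1 sample in the STZ+MENS group, assumed to vary like the samples of the other groups, so these are not replicated calls. They were Il1rap, Cxcl17, Il1b, Cxcl5, Tnfrsf1b, Il1r2, Ifnlr1, Tnfrsf12a and Ccr2. With the 12 arrays in the fit and the sample as a random block, 10, 17 and 6 members passed in the 3 comparisons, against 6.79%, 17.4% and 7.53% of all genes.

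The members as a whole shifted little. Among the 114 above 200, the median log2 difference was -0.05 in STZ against Control, 0.11 in STZ+MENS against STZ and 0.05 in STZ+MENS against Control. For all genes above 200 it was -0.02, 0.07 and 0.03. For the 300 smell receptor genes above 200 it was -0.12, 0.20 and 0.08, with the same signs. Fewer cells of a type and less RNA per cell cannot be told apart in these whole-tissue samples.

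**Figure D2:**
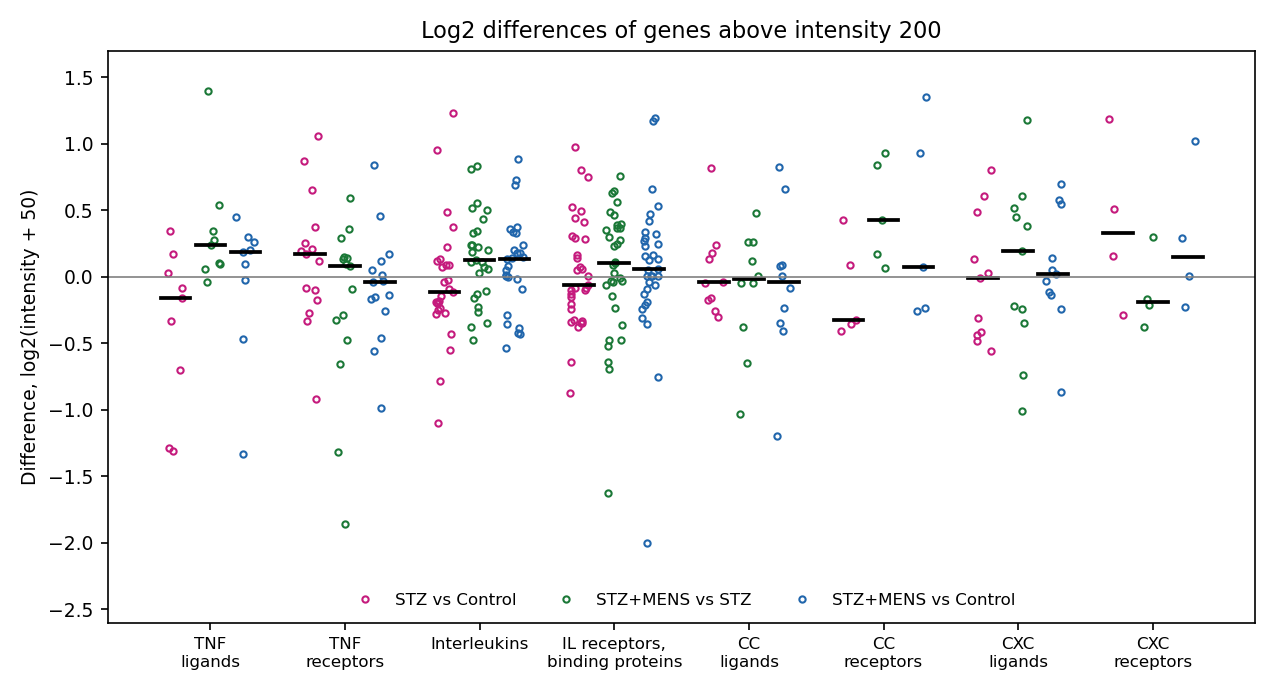
Log2 differences, on the log2(intensity + 50) scale, of the 114 genes above intensity 200, by role and comparison, with a bar at each median. Values run from -2.00 to 1.40, and the medians lie between -0.32 and 0.43.

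By role, counts at an unadjusted p under 0.05 were small in each comparison. In STZ against Control, where 17.0% of all genes were under it, 3 of 19 TNF receptors were higher and 2 lower (26.3%). Of 39 interleukin receptors and binding proteins 5 were higher and 2 lower (17.9%), and of 37 interleukins 2 were higher and 3 lower (13.5%). Of 13 CXC ligands 2 were higher and 2 lower (30.8%), of 16 CC ligands 2 higher and 1 lower (18.8%), of 7 CXC receptors 1 higher and 1 lower (28.6%), and of 10 CC receptors and 11 TNF ligands 0. In STZ+MENS against STZ, 0 TNF receptors were higher and 4 lower, together 21.1% of the role and below the 25.4% of all genes, and the median of those above 200 was 0.08. The CC ligands had 0 higher and 3 lower (18.8%), with a median of -0.02. The CC receptors had 3 higher and 0 lower (30.0%), with a median of 0.43 over the 5 above 200. The CXC ligands (38.5%) and the interleukins (13.5%) each had 4 higher and 1 lower, and the interleukin receptors 4 higher and 3 lower (17.9%). The TNF ligands had 1 higher and 0 lower (9.09%), and the CXC receptors 0. In STZ+MENS against Control, 18.0% of all genes had an unadjusted p under 0.05. Of 39 interleukin receptors and binding proteins 5 were higher and 2 lower (17.9%). Of 37 interleukins 1 was higher and 3 lower (10.8%), and of 19 TNF receptors 2 were higher and 1 lower (15.8%). Of 16 CC ligands 2 were higher and 1 lower there (18.8%), and of 10 CC receptors 2 were higher and 0 lower. Of 13 CXC ligands 1 was higher and 1 lower (15.4%), and of 7 CXC receptors 1 was higher and 0 lower (14.3%). The 11 TNF ligands had 0. Only the shares of the CC ligands and the CC receptors were above that of all genes.

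Among TNF receptors, the receptor Tnfrsf1b was highest in STZ in all samples. It binds TNF and, unlike Tnfrsf1a, carries no death domain. Its intensity was 1954 and 1949 in STZ+MENS, 5826 and 4109 in STZ, and 2227 and 2410 in Control. Both STZ samples lay above all others, and both STZ+MENS samples lay below all others. The log2 difference was 1.06 ± 0.19 (SE, n = 2 each) in STZ against Control, with an adjusted p of 0.113, and -1.32 ± 0.19 in STZ+MENS against STZ, with an adjusted p of 0.0595. Against Control, STZ+MENS differed by -0.25 ± 0.19 (adjusted p = 0.549). The promoter of this gene is shown because it was among the members whose STZ samples stood apart from both other groups. It lies at chr4:145246821-145247120 on the minus strand of GRCm38.p6, per RefSeq, and covers 250 bases before and 50 after the start, with a match to the STAT motif in capitals 181 bases before it.
Tnfrsf1b: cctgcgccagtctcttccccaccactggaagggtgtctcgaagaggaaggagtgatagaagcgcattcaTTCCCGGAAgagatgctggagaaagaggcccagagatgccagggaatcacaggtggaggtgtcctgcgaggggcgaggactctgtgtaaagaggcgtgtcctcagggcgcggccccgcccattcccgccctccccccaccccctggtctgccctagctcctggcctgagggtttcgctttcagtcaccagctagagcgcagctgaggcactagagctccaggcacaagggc

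Tnfrsf12a, the receptor of the cytokine TWEAK and known from the response of liver progenitor cells, had a similar order. It was at 1107 and 1781 in STZ+MENS, 7110 and 3823 in STZ, and 3692 and 2165 in Control. The order ran from both STZ samples at the top to both STZ+MENS samples at the bottom. STZ+MENS differed from STZ by -1.86 ± 0.40 (SE; adjusted p = 0.0716) and from Control by -0.99 ± 0.40 (adjusted p = 0.273). For STZ against Control the difference was 0.87 ± 0.40, with an adjusted p of 0.34. Its ligand TWEAK, encoded by Tnfsf12, was at 7381 and 5181 in STZ+MENS, 3974 and 4516 in STZ, and 5032 and 5693 in Control. Its STZ samples were the lowest of the 6, and STZ+MENS differed from STZ by 0.54 ± 0.21 (adjusted p = 0.172).

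Tnf itself, the main inflammatory ligand of the family, was at 1909 and 1055 in STZ+MENS, 1122 and 1320 in STZ, and 1887 and 1745 in Control. The STZ samples lay below Control, by -0.70 ± 0.36 (SE; adjusted p = 0.385), and the STZ+MENS samples were the highest and the lowest of the 6. Its arrays lay far apart within samples, at 436 and 1807 in STZ sample 1 and at 1641 and 469 in STZ+MENS sample 2. The difference of STZ from Control was -1.05 on the first array of each sample alone and -0.36 on the second, and that of STZ+MENS from STZ was 1.25 and -0.78. Tnfrsf1a, the death domain receptor of TNF on most cells, was at 11826 and 14841 in STZ+MENS, 15380 and 17959 in STZ, and 15581 and 13903 in Control. Its difference was 0.18 ± 0.18 in STZ against Control (adjusted p = 0.666) and -0.33 ± 0.18 in STZ+MENS against STZ (adjusted p = 0.301). Tnfrsf21, known as death receptor 6, had overlapping samples in STZ+MENS against STZ, with a difference of 0.13 ± 0.19. Tnfrsf18, a costimulatory receptor of T cells, overlapped in all 3 comparisons, with differences between -0.10 and 0.15.

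Receptors of lymphocytes were found on both sides. Tnfrsf13c, the receptor of the B cell survival factor BAFF, was at 184 and 169 in STZ+MENS, 251 and 276 in STZ, and 115 and 111 in Control. The 3 groups did not overlap, and the difference was 0.96 ± 0.14 in STZ against Control (adjusted p = 0.0902) and -0.48 ± 0.14 in STZ+MENS against STZ (adjusted p = 0.105). The summed intensity of the 6 B cell markers measured, more of it from Cd22 than from the others together, was 19303 and 11667 in STZ+MENS, 11814 and 11534 in STZ, and 11553 and 12110 in Control. Of the 6, 0 were apart between STZ and Control, against 52.1% of all genes. In STZ+MENS against STZ, 4 were apart and higher (66.7%, against 34.0% of all genes), and 0 had an unadjusted p under 0.05. The part of these markers in the result was not tested. Tnfrsf14, a receptor of lymphocyte regulation also called HVEM, was at 397 and 713 in STZ+MENS, 405 and 375 in STZ, and 753 and 815 in Control. Its Control samples were the highest of the 6, and STZ differed from Control by -0.92 ± 0.26 (adjusted p = 0.181). Tnfrsf4, the T cell costimulatory receptor OX40, was at 1510 and 973 in STZ+MENS, 727 and 877 in STZ, and 532 and 806 in Control. STZ+MENS was the highest group and differed from Control by 0.84 ± 0.28 (adjusted p = 0.206). Tnfrsf9, another costimulatory receptor of T cells, differed by 0.65 ± 0.24 in STZ against Control (adjusted p = 0.25), but by -0.34 when read from the first array of each sample alone.

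Tnfrsf13b, a second receptor of BAFF on B cells, was dim, at 81.7 and 92.2 in STZ+MENS, 135 and 247 in STZ, and 163 and 77.8 in Control. STZ+MENS lay below STZ, by -0.80 ± 0.31 (SE; adjusted p = 0.174). The ligands Tnfsf14 and Tnfsf10 were picked out after their values were seen, as cases in which 1 sample or array set the difference. Tnfsf14, a ligand of Tnfrsf14 also called LIGHT, was at 1059 and 1005 in STZ+MENS, 767 and 386 in STZ, and 905 and 1022 in Control. Its difference of 1.40 ± 0.58 in STZ+MENS against STZ (adjusted p = 0.2) was the highest of any member above 200, but the 2 arrays of STZ sample 2 read 770 and 1.47. Tnfsf10, the death ligand TRAIL, was at 629 and 581 in STZ+MENS, 801 and 478 in STZ, and 830 and 2966 in Control, and a single Control sample stood far above the other 5 (-1.29 ± 0.56 in STZ against Control, adjusted p = 0.312).

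**Figure D3:**
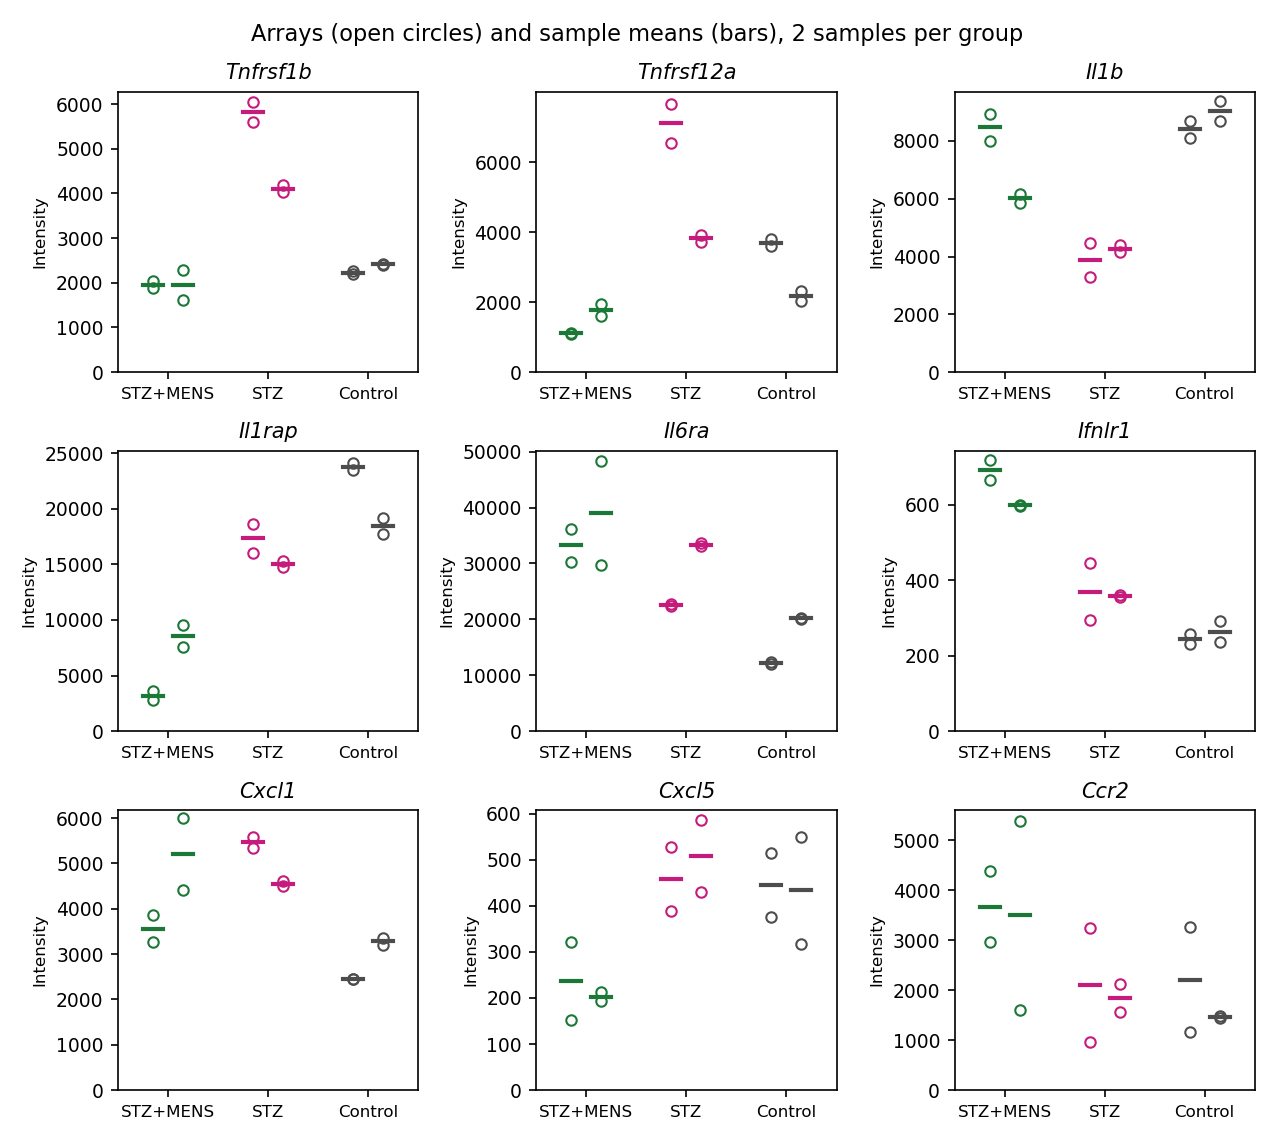
Intensity of 9 genes on each array (open circles) and as the mean of each sample (bars), with 2 samples per group. Both STZ samples are the highest for Tnfrsf1b and Tnfrsf12a and the lowest for Il1b, and the arrays of Ccr2 lie far apart within samples.

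In the IL-1 family, the inflammatory cytokine Il1b was lowest in STZ. It was at 8465 and 6022 in STZ+MENS, 3870 and 4275 in STZ, and 8407 and 9033 in Control. Both STZ samples lay below the other 4, and STZ+MENS overlapped with Control. STZ differed from Control by -1.10 ± 0.20 (SE; adjusted p = 0.11) and STZ+MENS from STZ by 0.81 ± 0.20 (adjusted p = 0.0835). With only the STZ and Control samples in the fit, the adjusted p of Il1b was 0.0443, the only member to pass there, beside 1.02% of all genes. Monocytes and macrophages are known as its main source. The 12 Kupffer cell or macrophage markers were all measured above 200, with C1qa contributing most to the sum. They summed to 77366 and 119432 in STZ+MENS, 81510 and 75767 in STZ, and 88768 and 75686 in Control, so STZ and Control overlapped. Of the 12, 2 were apart and lower in STZ against Control (16.7%, against 28.2% of all genes), and 1 higher (8.33%, against 24.0%). The 8 monocyte or neutrophil markers measured summed to 4367 and 4569 in STZ and 5219 and 5658 in Control. Both STZ sums were the lowest of the 6. Of the 8, 3 were apart and lower in STZ against Control (37.5%, against 28.2% of all genes), and 1 higher (12.5%, against 24.0%). The widest was Itgam, at -0.88 ± 0.18 (adjusted p = 0.127). Whether these markers had a part in the Il1b values was not tested. The promoter of Il1b is shown as that of the interleukin with the lowest STZ samples. It lies at chr2:129371090-129371389 on the minus strand of GRCm38.p6, per RefSeq, with a TATAAA match in capitals 31 bases before the start.
Il1b: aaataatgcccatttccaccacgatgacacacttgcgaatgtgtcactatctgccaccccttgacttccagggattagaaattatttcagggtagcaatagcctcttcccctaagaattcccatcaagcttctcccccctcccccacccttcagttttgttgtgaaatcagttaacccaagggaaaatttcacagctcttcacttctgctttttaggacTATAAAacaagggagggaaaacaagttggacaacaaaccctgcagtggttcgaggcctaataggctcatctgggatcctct

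The related ligand Il1a was at 1573 and 1337 in STZ+MENS, 1491 and 1673 in STZ, and 2273 and 1608 in Control, and STZ and Control overlapped (-0.27 ± 0.21, adjusted p = 0.571). Il1rn, the natural antagonist of the IL-1 receptor, was at 357 and 403 in STZ+MENS, 88.8 and 372 in STZ, and 338 and 388 in Control. A single STZ sample stood below the other 5, and the difference of STZ from Control was -0.78 ± 0.49 (adjusted p = 0.473). Il18, another member of the family, was at 3798 and 4175 in STZ+MENS, 4940 and 4683 in STZ, and 5283 and 4934 in Control. STZ+MENS was lowest, by -0.35 ± 0.14 against Control (adjusted p = 0.259).

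Il1f10, which encodes the IL-1 family cytokine IL-38, was at 390 and 399 in STZ+MENS, 248 and 279 in STZ, and 270 and 324 in Control. STZ+MENS was highest, by 0.51 ± 0.15 against STZ (SE; adjusted p = 0.115). Il18r1, the IL-18 receptor chain that binds the cytokine, was picked out after its values were seen. It was at 218 and 365 in STZ+MENS, 631 and 290 in STZ, and 236 and 154 in Control, with both Control samples below both STZ samples (0.97 ± 0.39, adjusted p = 0.283).

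The co-receptor Il1rap, without which the IL-1 receptor does not signal, had the widest difference of any member. It was at 3204 and 8549 in STZ+MENS, 17334 and 15052 in STZ, and 23788 and 18449 in Control. The groups did not overlap, with STZ+MENS lowest and Control highest. STZ+MENS differed from Control by -2.00 ± 0.44 (SE; adjusted p = 0.127) and from STZ by -1.62 ± 0.44 (adjusted p = 0.0976). The difference from STZ was between -2.32 and -0.92 when single samples were left out, since the 2 STZ+MENS samples themselves differed. Of the 6 hepatocyte markers measured, Apob and Cps1 were lower in STZ+MENS in the same way, with sample 1 below sample 2. Against Control they differed by -2.26 ± 0.51 (adjusted p = 0.128) and -1.47 ± 0.48 (adjusted p = 0.202). Hnf4a, Apoa1 and Ttr overlapped with Control, with differences of -0.09, -0.02 and 0.04, and Alb differed by -0.07. The part of these markers in the result was not tested. Il1r1, the receptor chain that binds IL-1, was at 6330 and 9351 in STZ+MENS, 12104 and 9370 in STZ, and 9716 and 9261 in Control, and differed by -0.47 ± 0.23 in STZ+MENS against STZ (adjusted p = 0.252).

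Among the IL-6 family, the cytokine Il6 itself was dim, at 83.7 and 43.7 in STZ+MENS, 83.6 and 59.6 in STZ, and 66.1 and 102 in Control, with all groups overlapping. Il6ra, the chain through which hepatocytes bind IL-6, was at 33227 and 39034 in STZ+MENS, 22582 and 33357 in STZ, and 12236 and 20228 in Control. Both Control samples were the lowest of the 6. STZ+MENS differed from Control by 1.17 ± 0.30 (SE; adjusted p = 0.142) and STZ from Control by 0.80 ± 0.30 (adjusted p = 0.254). Il6st, the signalling chain gp130 shared by the IL-6 family, was at 4598 and 5685 in STZ+MENS, 5931 and 6098 in STZ, and 6128 and 4853 in Control, and its differences were between -0.23 and 0.14. Il27, a cytokine that also signals through gp130, was at 3287 and 2691 in STZ+MENS, 1912 and 2097 in STZ, and 2158 and 2419 in Control. STZ+MENS was highest and STZ lowest, with a difference of 0.56 ± 0.16 between them (adjusted p = 0.113).

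The chains of the IL-10 receptor went opposite ways, and IL-10 itself did not separate the groups. Il10, which restrains macrophages, was at 936 and 1032 in STZ+MENS, 992 and 934 in STZ, and 967 and 1136 in Control. Il10ra, the chain that binds IL-10, was at 764 and 961 in STZ+MENS, 543 and 514 in STZ, and 822 and 888 in Control. Both STZ samples were the lowest, by -0.64 ± 0.16 against Control (SE; adjusted p = 0.158), and STZ+MENS differed from STZ by 0.65 ± 0.16 (adjusted p = 0.0874). Il10rb, a chain shared with the receptors of IL-22 and the lambda interferons, was at 1098 and 1056 in STZ+MENS, 1626 and 1508 in STZ, and 1137 and 1015 in Control. Here both STZ samples were the highest, by 0.53 ± 0.14 against Control (adjusted p = 0.168), with -0.52 ± 0.14 in STZ+MENS against STZ (adjusted p = 0.0987). STZ+MENS and Control overlapped for both chains.

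Ifnlr1, the lambda interferon receptor chain that pairs with the product of Il10rb, was counted as a member under its older symbol IL28RA. It was at 691 and 598 in STZ+MENS, 370 and 358 in STZ, and 244 and 263 in Control. The 3 groups did not overlap, in the order STZ+MENS, STZ and Control. STZ+MENS differed from Control by 1.19 ± 0.14 (SE; adjusted p = 0.111) and from STZ by 0.76 ± 0.14 (adjusted p = 0.0631). STZ differed from Control by 0.44 ± 0.14 (adjusted p = 0.213). Il20rb, a chain of the receptors of IL-20 and IL-24, was at 21959 and 15010 in STZ+MENS, 24818 and 24567 in STZ, and 10928 and 19709 in Control, with STZ highest by 0.75 ± 0.32 against Control (adjusted p = 0.312).

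Several further interleukin receptors had STZ+MENS at an end of their order. Il13ra1, a chain of the receptor of IL-4 and IL-13, was at 1823 and 2557 in STZ+MENS, 4108 and 3008 in STZ, and 3682 and 3651 in Control. Both STZ+MENS samples were the lowest of the 6, by -0.69 ± 0.22 against STZ (SE; adjusted p = 0.132) and -0.75 ± 0.22 against Control (adjusted p = 0.176). Il23r, the IL-23 receptor of T cells, was at 17278 and 12909 in STZ+MENS, 9851 and 10453 in STZ, and 9918 and 11592 in Control. Both STZ+MENS samples were the highest, by 0.56 ± 0.19 against STZ (adjusted p = 0.138). Il15ra, which presents IL-15 to lymphocytes, was likewise highest in STZ+MENS, by 0.54 ± 0.20 against Control (adjusted p = 0.243). Il7r, the IL-7 receptor of lymphocytes, was at 274 and 325 in STZ+MENS, 258 and 205 in STZ, and 152 and 170 in Control. These sample means did not overlap, and STZ+MENS differed from Control by 0.66 ± 0.16 (adjusted p = 0.139). However, the 2 arrays of STZ+MENS sample 2 read 158 and 493, the first below an array of Control sample 1, at 209. Il12b, the subunit shared by IL-12 and IL-23, was at 800 and 770 in STZ+MENS, 739 and 687 in STZ, and 1006 and 1133 in Control. Its Control samples were the highest, and STZ differed from Control by -0.55 ± 0.14 (adjusted p = 0.161).

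In the IL-17 family, differences of Il17ra, Il17rb and Il17rc, chains of the IL-17 receptors, lay between -0.24 and 0.32 in all comparisons. Il17f, a cytokine of T helper cells, was at 1807 and 496 in STZ+MENS, 940 and 1333 in STZ, and 388 and 455 in Control. Control was the lowest group, and STZ differed from it by 1.23 ± 0.42 (SE; adjusted p = 0.229). However, the 2 arrays read 463 and 1417 in STZ sample 1, and 614 and 296 in Control sample 2. In STZ+MENS sample 1 they read 3125 and 489. Il17c, an epithelial member of the family, was at 307 and 256 in STZ+MENS, 333 and 378 in STZ, and 112 and 257 in Control. STZ differed from Control by 0.95 ± 0.23 (adjusted p = 0.15) and STZ+MENS from Control by 0.73 ± 0.23 (adjusted p = 0.189), a value that was -0.20 on the second array of each sample alone. Il17b, a ligand of the receptor chain Il17rb, was at 264 and 312 in STZ+MENS, 436 and 405 in STZ, and 394 and 386 in Control. STZ+MENS was lowest, by -0.47 ± 0.14 against STZ (adjusted p = 0.119). Il2rg, the chain shared by the receptors of IL-2, IL-7 and IL-15, was dim, at 43.1 and 42.0 in STZ+MENS, 22.4 and 29.3 in STZ, and 48.9 and 54.3 in Control, with STZ lowest, by -0.42 ± 0.14 against Control (adjusted p = 0.212).

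Among the CC chemokines, Ccr2, the receptor that brings monocytes out of the marrow, was higher in STZ+MENS. It was at 3672 and 3498 in STZ+MENS, 2098 and 1845 in STZ, and 2211 and 1465 in Control. Both STZ+MENS samples lay above the other 4, by 0.84 ± 0.19 against STZ (SE; adjusted p = 0.0751) and 0.93 ± 0.19 against Control (adjusted p = 0.125). Arrays of the same sample disagreed, however: on the first array of each sample alone the difference from STZ was -0.042. The 8 monocyte or neutrophil markers measured, of 10 listed, had summed intensities of 4721 and 4590 in STZ+MENS, 4367 and 4569 in STZ, and 5219 and 5658 in Control.

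The CCR2 ligands had another order than their receptor. Ccl2, the main attractant of monocytes, was at 238 and 241 in STZ+MENS, 532 and 302 in STZ, and 331 and 335 in Control, so that STZ+MENS was lowest, by -0.64 ± 0.24 against STZ (SE; adjusted p = 0.168). Ccl7, which also binds CCR2, was at 53.3 and 80.2 in STZ+MENS, 120 and 102 in STZ, and 249 and 159 in Control. These dim values did not overlap between groups, and STZ+MENS differed from Control by -1.08 ± 0.23 (adjusted p = 0.127). Ccl5, an attractant of T cells, was at 700 and 829 in STZ+MENS, 443 and 641 in STZ, and 472 and 459 in Control, with STZ+MENS highest by 0.66 ± 0.20 against Control (adjusted p = 0.184). Ccr6, the receptor of CCL20, was at 551 and 654 in STZ+MENS, 204 and 413 in STZ, and 222 and 188 in Control. Its STZ+MENS samples were the highest, by 1.35 ± 0.29 against Control (adjusted p = 0.127) and 0.93 ± 0.29 against STZ (adjusted p = 0.125). Ccr9, the receptor of CCL25, was at 5211 and 4411 in STZ+MENS, 3749 and 3397 in STZ, and 4217 and 4924 in Control, with STZ lowest. Ccl28, a chemokine of epithelial surfaces, was dim, at 95.1 and 95.3 in STZ+MENS, 155 and 187 in STZ, and 100 and 118 in Control. Its STZ samples were the highest, and STZ+MENS differed from STZ by -0.60 ± 0.15 (adjusted p = 0.0865). Ccl11, the eosinophil attractant eotaxin, picked out after its values were seen, was at 1161 and 1023 in STZ+MENS, 1214 and 876 in STZ, and 747 and 415 in Control. Control was lowest, and STZ differed from it by 0.82 ± 0.31 (adjusted p = 0.269).

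The CXC ligands that attract neutrophils had no common order. Cxcl1 was at 3562 and 5201 in STZ+MENS, 5467 and 4551 in STZ, and 2454 and 3282 in Control. Both Control samples were the lowest, and STZ differed from Control by 0.80 ± 0.24 (SE; adjusted p = 0.195). Cxcl2 was at 634 and 377 in STZ+MENS, 285 and 242 in STZ, and 544 and 303 in Control. By these means STZ was lowest, by -0.56 ± 0.28 against Control (adjusted p = 0.385). The 2 arrays of STZ+MENS sample 1 read 1090.5 and 177.72, however, the second within the STZ arrays, which ran from 161.5 to 343.78. Cxcl5 was at 237 and 202 in STZ+MENS, 458 and 508 in STZ, and 446 and 434 in Control. Both STZ+MENS samples lay below the other 4, by -1.0 ± 0.14 against STZ (adjusted p = 0.0595) and -0.87 ± 0.14 against Control (adjusted p = 0.111). Single arrays were less clear: STZ+MENS sample 1 read 322 and 151, the first below every STZ array but above a Control sample 2 array at 317. The promoter of Cxcl1 is shown because NF-kB is known to drive this gene. It lies at chr5:90890995-90891294 on the plus strand of GRCm38.p6, per RefSeq, and the capitals mark overlapping matches to the kappaB consensus on both strands, 71 and 70 bases before the start.
Cxcl1: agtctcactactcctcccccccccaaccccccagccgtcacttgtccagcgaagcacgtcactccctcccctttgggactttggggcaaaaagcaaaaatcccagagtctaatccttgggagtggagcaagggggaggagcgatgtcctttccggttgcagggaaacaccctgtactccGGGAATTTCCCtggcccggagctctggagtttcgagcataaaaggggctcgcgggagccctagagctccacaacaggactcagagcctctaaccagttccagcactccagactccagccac

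Of the remaining CXC genes, several had both STZ samples at an end of their order. Cxcl12, which holds CXCR4-bearing cells in marrow and tissue, was at 84258 and 89468 in STZ+MENS, 75973 and 75219 in STZ, and 95434 and 91715 in Control. STZ was the lowest group without overlap, but by only -0.31 ± 0.13 against Control (SE; adjusted p = 0.306). Its receptor Cxcr4 was dim, at 131 and 222 in STZ+MENS, 90.6 and 122 in STZ, and 186 and 179 in Control, with a difference of -0.60 ± 0.23 in STZ against Control (adjusted p = 0.271). Cxcl16, the membrane-bound ligand of CXCR6, was at 7131 and 6157 in STZ+MENS, 4583 and 5100 in STZ, and 6202 and 6903 in Control. Both STZ samples were the lowest, by -0.43 ± 0.15 against Control (adjusted p = 0.242). Its receptor Cxcr6, carried by liver T cells and NKT cells, had the other order, at 300 and 715 in STZ+MENS, 418 and 681 in STZ, and 173 and 242 in Control, with STZ above Control by 1.18 ± 0.41 (adjusted p = 0.233). Cxcl9, an interferon-induced attractant of T cells, was at 2518 and 2091 in STZ+MENS, 1498 and 1649 in STZ, and 1732 and 1478 in Control, with STZ+MENS highest by 0.52 ± 0.15 against STZ (adjusted p = 0.114).

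Cxcl13, which guides B cells into follicles, was at 197 and 246 in STZ+MENS, 274 and 317 in STZ, and 182 and 207 in Control. STZ was highest, by 0.49 ± 0.16 against Control (SE; adjusted p = 0.222). Its receptor Cxcr5 was at 8266 and 11840 in STZ+MENS, 12051 and 13580 in STZ, and 11875 and 11097 in Control, with STZ highest by a smaller margin (0.15 ± 0.20 against Control). Cxcl15, a chemokine of mice that attracts neutrophils, was at 845 and 769 in STZ+MENS, 607 and 605 in STZ, and 776 and 877 in Control. Both STZ samples were the lowest, by -0.42 ± 0.14 against Control (adjusted p = 0.227).

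**Figure D4:**
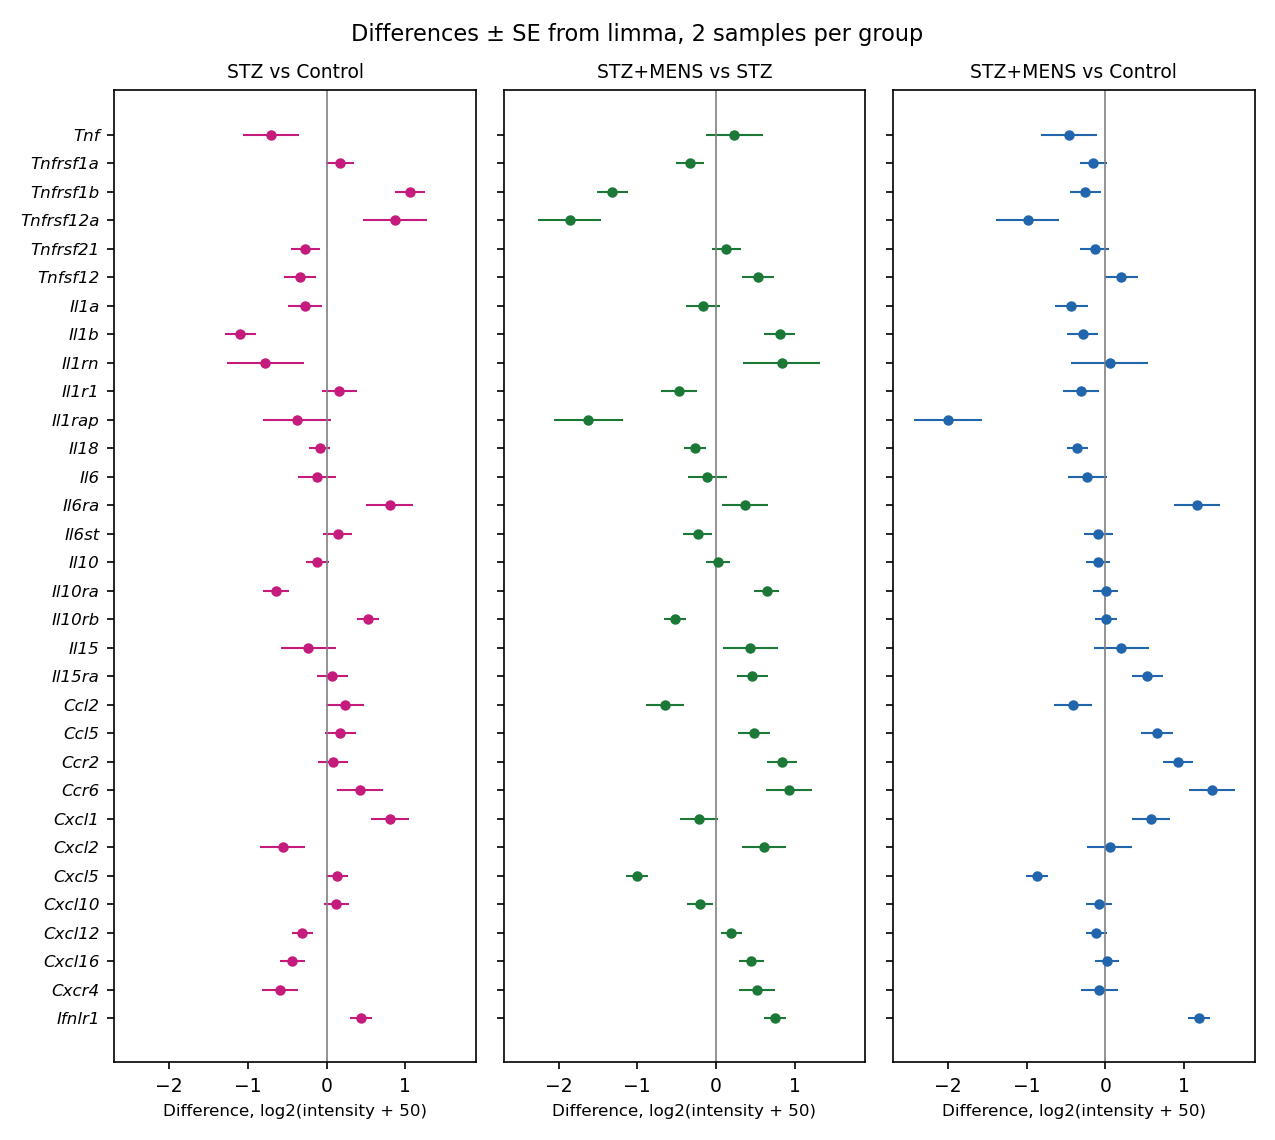
Log2 differences with their SE from limma, on the log2(intensity + 50) scale, for 32 of the genes in each of the 3 comparisons. The widest are Il1rap at -2.00 in STZ+MENS against Control and Tnfrsf12a at -1.86 in STZ+MENS against STZ, and no difference passed the adjustment.

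For 19 members the array held more than 1 probe, which gives a check on the same RNA. The second probe of Tnfrsf1b gave 1.24 in STZ against Control and -0.73 in STZ+MENS against STZ, both with the sign of the brighter probe, and 0.50 in STZ+MENS against Control, with the other sign. The second probe of Tnfrsf12a gave 0.55, -1.02 and -0.47 in the 3 comparisons, all with the sign of the brighter probe. For Il1rap the second probe gave -0.48 in STZ+MENS against STZ and -0.58 against Control, smaller than the -1.62 and -2.00 of the brighter probe. For Il6ra it gave 0.23 in STZ+MENS against Control, beside 1.17. For Ccr2 it gave 0.49 in STZ+MENS against STZ, beside 0.84. For Il17c it gave -0.11 in STZ against Control, beside 0.95. Cxcl14, a chemokine of epithelium and stroma that was picked out here after its values were seen, gave 1.18 and 1.97 in STZ+MENS against STZ on its 2 probes. Its brighter probe was at 4930 and 5598 in STZ+MENS, 2107 and 1908 in STZ, and 4843 and 1628 in Control. These sample means did not overlap between STZ+MENS and STZ, and the Control samples lay far apart (adjusted p = 0.18 in STZ+MENS against STZ). The 2 arrays of STZ+MENS sample 2 read 9136 and 2060, however, the second within the STZ arrays, which ran from 1609 to 2251.

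**Figure D5:**
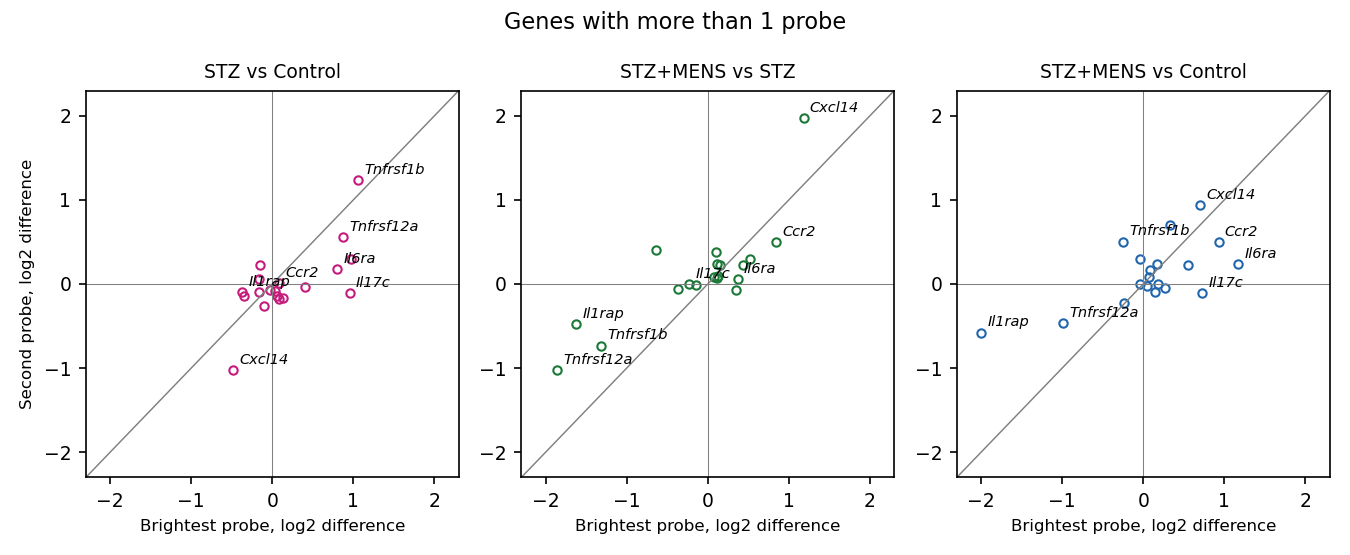
Log2 difference of the second probe (vertical) against that of the brightest probe (horizontal) for the genes with more than 1 probe, in each comparison, with the line of equal values. Tnfrsf12a and Tnfrsf1b lie far from 0 on both probes in STZ+MENS against STZ, and Il1rap and Il6ra lie far from 0 mainly on the brighter one.

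The members were also sorted by which group held the ends of the order of 6 samples. Among the 114 members above 200, both STZ samples were the lowest of the 6 for 22 (19.3%, against 19.1% of all genes above 200) and the highest for 11 (9.65%, against 13.7%). Both STZ+MENS samples were the highest for 18 (15.8%, against 17.3%) and the lowest for 10 (8.77%, against 14.7%). Control was the highest for 7 (6.14%, against 9.01%) and the lowest for 9 (7.89%, against 9.89%). Only the share with STZ lowest reached its background.

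The signalling pathways downstream were read from listed genes, and none of their members passed the adjustment. Of 30 measured genes of NF-kB and TNF/IL-1 signalling, 2 were higher and 1 lower in STZ against Control at an unadjusted p under 0.05, together 10%, against 17.0% of all genes. In STZ+MENS, 2 were higher and 2 lower against STZ (13.3%, against 25.4% of all genes), and 4 higher and 2 lower against Control (20%, against 18.0%). Nfkbia, the NF-kB inhibitor that NF-kB itself induces, was at 70588 and 83692 in STZ+MENS, 71934 and 72085 in STZ, and 29857 and 36666 in Control. Control was far below the other groups, and the difference was 1.12 ± 0.17 in STZ (SE; adjusted p = 0.0935) and 1.21 ± 0.17 in STZ+MENS (adjusted p = 0.111), both against Control. Of 18 JAK-STAT-SOCS genes, 1 was higher and 3 lower in STZ against Control (22.2%), 2 higher and 2 lower in STZ+MENS against STZ (22.2%), and 2 higher and 3 lower in STZ+MENS against Control (27.8%). Stat3, the main transcription factor of IL-6 signalling, was at 2564 and 2294 in STZ+MENS, 2873 and 2980 in STZ, and 1473 and 1738 in Control, with 0.85 ± 0.15 in STZ against Control (adjusted p = 0.11). Cish, a feedback inhibitor induced by STAT5, was at 13023 and 2983 in STZ+MENS, 3331 and 7544 in STZ, and 18341 and 34998 in Control, with -2.33 ± 0.75 in STZ against Control (adjusted p = 0.212).

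Of 17 measured genes listed as acute phase genes, several of which IL-6 induces, 0 were higher and 2 lower in STZ against Control (11.8%). In STZ+MENS, 1 was higher and 2 lower against STZ (17.6%), and 0 were higher and 3 lower against Control (17.6%). Over all genes the shares were 17.0%, 25.4% and 18.0%, so none of these was above the background. Apcs, the acute phase pentraxin of mice, was at 68501 and 33640 in STZ+MENS, 28947 and 13293 in STZ, and 84152 and 64937 in Control, with -1.91 ± 0.46 in STZ against Control (SE; adjusted p = 0.154). Steap4, a metal reductase induced by inflammation, was at 2100 and 2746 in STZ+MENS, 5282 and 5425 in STZ, and 4207 and 4741 in Control, with -1.14 ± 0.17 in STZ+MENS against STZ (adjusted p = 0.0595). Of 31 other cytokines and receptors, 8 were higher and 1 lower in STZ+MENS against STZ (29.0%, against 25.4% of all genes), 0 higher and 5 lower in STZ against Control (16.1%, against 17.0%), and 3 higher and 1 lower in STZ+MENS against Control (12.9%, against 18.0%). Osmr, the oncostatin M receptor, was at 2546 and 2145 in STZ+MENS, 1214 and 1266 in STZ, and 2308 and 2588 in Control. Both STZ samples were the lowest, by -0.95 ± 0.15 against Control (adjusted p = 0.101). Fas, the death receptor of the TNF receptor family that the symbol rule did not take in, was at 465 and 818 in STZ+MENS, 1965 and 1261 in STZ, and 1128 and 1133 in Control, the same order as Tnfrsf1b and Tnfrsf12a, with -1.30 ± 0.30 in STZ+MENS against STZ (adjusted p = 0.0758). Of 12 other chemokines and decoy receptors, among them the member Ackr3, 1 was higher and 2 lower in STZ against Control (25%), and 1 was higher and 0 lower in each comparison of STZ+MENS (8.33%). Cmklr1, the chemerin receptor, was at 2250 and 2346 in STZ+MENS, 1844 and 2330 in STZ, and 1094 and 1147 in Control, with 0.86 ± 0.16 in STZ against Control (adjusted p = 0.115).

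Markers of the cells that carry these receptors moved in places, and their part in the values above was not tested. The 8 T cell markers measured, of 10, summed to 7490 and 7692 in STZ+MENS, 6084 and 7022 in STZ, and 8120 and 7592 in Control, lowest in both STZ samples, with Cd3e contributing most to the sum. Single T cell markers went both ways: Cd3e differed by -0.49 in STZ against Control, and Cd3d, at 330 and 494 in STZ+MENS, 455 and 498 in STZ, and 223 and 228 in Control, by 0.94 ± 0.20 (adjusted p = 0.13). The 5 markers of all leukocytes summed to 20144 and 26989 in STZ+MENS, 19380 and 20579 in STZ, and 19028 and 19838 in Control. The 8 cholangiocyte markers summed to 22876 and 18040 in STZ+MENS, 25552 and 19962 in STZ, and 16691 and 16285 in Control, lowest in both Control samples, and 5 of the 8 were apart and higher in STZ against Control (62.5%, against 24.0% of all genes). For erythroid cells 2 of 9 markers were measured, and their sum was 104836 and 9330 in STZ+MENS, 32621 and 55363 in STZ, and 79641 and 95699 in Control, which separated the 2 STZ+MENS samples from each other. No measured marker had a mean intensity at 0, and S100a8 of neutrophils, at 70.9, was the lowest. 

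RefSeq promoters of GRCm38.p6 were matched to 115 of the 152 members and searched for 4 motifs. The kappaB consensus, on either strand, was found in 11.3% of the members' promoters and in 4.35% of all 27025. TATAAA on the gene's strand was in 15.7% and 8.88%, the AP-1 motif TGANTCA on either strand in 19.1% and 7.93%, and the STAT motif TTCNNNGAA on either strand in 13.9% and 8.47%. A match is a description of these 300 bases and not a site shown to be bound.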

How the data were processed

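Liver RNA was labelled with Cy5 and hybridised to single-colour Phalanx Mouse OneArray arrays, per the labels' protocols. The deposited values are linear probe intensities that the authors had already background-subtracted or otherwise adjusted, since some lie below 0, and normalized, since sorted values differed between arrays by at most 6.31% of their mean without the 1000 lowest. How this was done is not stated in the labels or the file header, and limma 3.30.7 is named without a role per the submitters' processing notes.

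Values below 0 were set to 0, 50 was added and log2 taken, which understates the differences of dim genes. Of 26423 probes, 20377 had 1 gene symbol, 0 had several and 6046 had none. The brightest probe stood for each gene. After averaging the arrays of each sample, limma 3.58.1 (lmFit, then eBayes, in R 4.3.3) fitted the 6 samples with a mean for each group, with two-sided p adjusted by Benjamini-Hochberg over 17742 genes at a threshold of 0.05. Errors are SEs of that fit. Values were read with the data.table package (version 1.17.8), lists and figures made with Python 3.11.15, pandas 2.3.3 and matplotlib 3.10.9. The test was checked on simulated data.

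Named were 20 well-known genes, the 20 brightest members, per comparison the 15 members above 200 with the smallest p and up to 5 dimmer ones with an unadjusted p under 0.05, and up to 4 genes of each pathway list. The members and lists were chosen with earlier results of these data known, and the smell receptor genes (symbols starting with Olfr or Vmn) after the values were seen. Sample numbers do not pair samples across groups: their deviations from the group means correlated by -0.03, 0.005 and -0.07 over genes. Read as a bare prefix, Tnf would add 8 genes such as Tnfaip3.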

Additional observations from a re-analysis of the deposited data

How the results depend on the processing

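The counts were recomputed under 21 alternatives. Beyond the 0 members called in each comparison, the fit of 2 groups alone called 1 in STZ against Control, and the 12 arrays with the sample as a random block called 10, 17 and 6 in STZ against Control, STZ+MENS against STZ and STZ+MENS against Control. Adding an array replicate block to that fit gave 4, 16 and 6, with 5.77%, 15.4% and 5.92% of all genes called. These fits change how arrays and samples share the spread, and 3079 of all genes were called in STZ+MENS against STZ by the random block, against 0 in the fit reported. Leaving out single samples gave 0 to 1, 0 to 9 and 0 to 1 called members, with the lone sample of a group assumed to vary like the others. At an unadjusted p under 0.05, the 26, 28 and 22 members became 17 to 29, 14 to 35 and 17 to 29 without single samples. The lowest counts came without Control sample 1 or STZ sample 1 (17, STZ against Control) and without STZ sample 1 (14, STZ+MENS against STZ). Array 2 alone gave 17 in STZ against Control. With the sample number as a replicate block, 0 members were called in each comparison and 22, 28 and 19 were under the unadjusted threshold.

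Of 67 values of named members under that threshold, 17 stayed under it in all alternatives run, among them Il1b and Tnfrsf1b in STZ against Control and Il1b, Tnfrsf1b, Tnfrsf12a, Il1rap, Ifnlr1, Cxcl5 and Ccl28 in STZ+MENS against STZ. Among the 67 the sign turned for 3: Tnfrsf9 in STZ against Control (-0.34) and Ccr2 in STZ+MENS against STZ (-0.042) on array 1 alone, and Il17c in STZ+MENS against Control (-0.20) on array 2 alone. The cause was not tested. The median of the 114 members, added to the alternatives after seeing the data, was between -0.08 and -0.03, 0.09 and 0.17, and -0.01 and 0.08, the only change of sign being without Control sample 1. At thresholds of 100 and 400, 131 and 85 members lay above. With 2 samples per group no outlier could be tested, and dim members, such as Ccl7 and Cxcl10, have values close to the offset.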
